A study of Arabidopsis thaliana with 6 samples.

Results

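Among the 24193 genes of the deposited table, 10 that set the growth programme of a seedling in darkness were examined by their locus identifiers: the phytochrome-interacting factor genes PIF1 (AT2G20180), PIF3 (AT1G09530), PIF4 (AT2G43010), PIF5 (AT3G59060) and PIF7 (AT5G61270), the related HFR1 (AT1G02340) and PIL1 (AT2G46970), the ubiquitin ligase gene COP1 (AT2G32950), and the bZIP factor genes HY5 (AT5G11260) and HYH (AT3G17609). All 10 were found, PIF1 and PIF5 under the RefSeq symbols PIL5 and PIL6. The data are RNA levels of whole Arabidopsis thaliana seedlings grown for 6 days on vertical plates in the dark, in 3 libraries of the lon1-1 mutant and 3 of its Col-0 wild type (wt), each a separate biological replicate per the labels. LON1 is a protease of the mitochondrial matrix, and the labels do not describe the lon1-1 lesion. The study asks how the transcripts of dark-grown seedlings differ when LON1 is mutated.

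In darkness PIF proteins accumulate, bind promoters, drive hypocotyl elongation and hold back greening. COP1 meanwhile marks factors that promote greening, HY5, HYH and HFR1 among them, for degradation. Light reverses both arms: phytochromes destroy or inhibit most PIFs, and COP1 is switched off so that HY5 builds up. Much of this control acts on the proteins, which RNA levels do not show.

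PIFs and HY5 are known to bind DNA words built on ACGT, above all the G-box CACGTG, and PIFs also bind CACATG. The 200 bases before the annotated start of 4 genes are printed because these were, with PIF1, the members with the largest changes. Capitals mark the G-box, the word CACATG on either strand, and ACGT, which is also the core of the G-box. A CACATG on the strand not printed reads as CATGTG.
HY5, chr5:3595074-3595273, minus strand: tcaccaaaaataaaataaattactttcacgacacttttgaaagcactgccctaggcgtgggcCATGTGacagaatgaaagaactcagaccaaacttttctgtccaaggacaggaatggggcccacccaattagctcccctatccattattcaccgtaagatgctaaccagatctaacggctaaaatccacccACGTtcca
HYH, chr3:6023644-6023843, plus strand: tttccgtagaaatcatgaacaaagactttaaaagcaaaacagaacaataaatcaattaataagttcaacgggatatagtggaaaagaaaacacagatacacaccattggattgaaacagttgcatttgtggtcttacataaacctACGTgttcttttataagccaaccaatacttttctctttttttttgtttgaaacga
PIF4, chr2:17885901-17886100, plus strand: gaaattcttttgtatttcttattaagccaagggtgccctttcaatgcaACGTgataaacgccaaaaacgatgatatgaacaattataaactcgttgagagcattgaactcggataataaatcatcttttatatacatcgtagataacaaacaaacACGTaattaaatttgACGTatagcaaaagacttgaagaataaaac
PIF5, chr3:21830838-21831037, minus strand: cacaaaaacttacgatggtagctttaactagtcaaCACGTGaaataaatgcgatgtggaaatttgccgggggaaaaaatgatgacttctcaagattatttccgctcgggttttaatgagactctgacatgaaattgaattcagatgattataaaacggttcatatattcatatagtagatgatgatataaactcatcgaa
These are RefSeq sequences of build TAIR10.1, read 5′ to 3′ on the strand of the gene. ACGT occurred in this window in 6 of the 10 members (PIF4, PIF5, PIL1, COP1, HY5 and HYH), and in 38.4% of the windows of all 27443 nuclear protein-coding genes. PIF5 was the member with CACGTG, starting 165 bases before the gene, a word held by 5.64% of all windows. HY5 was the member with CACATG, starting 138 bases before the gene (8.99% of all windows), and its ACGT began 8 bases before the start. PIF4 held 3 copies of ACGT, at 152, 45 and 30 bases. PIF1, PIF3, PIF7 and HFR1 had none of these words in the window. The 6 genes with ACGT included members that were higher and members that were lower in lon1-1, and a match of letters is not a binding site.

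Values are FPKM, fragments per kilobase of transcript with the mapped fragments of each library as the common base, as the authors computed them. An approximate depth, read from the steps between low values, was 34500000 to 35500000 fragments in lon1-1 libraries and 32750000 to 33250000 in wt libraries. The number of genes at 1 FPKM or more was 17861 to 17879 in lon1-1 libraries and 17903 to 18007 in wt libraries. LON1 (AT5G26860) had 2.67, 2.61 and 2.79 FPKM in lon1-1 and 4.69, 4.70 and 4.69 in wt, so it was lower in every library titled lon1-1. The titles define the genotypes here, since the separate genotype label gives Col-0 throughout. The protochlorophyllide reductase gene PORA, a marker of dark growth, averaged 102 ± 0.290 FPKM in lon1-1 and 181 ± 3.62 in wt (SD, n = 3 each). In whole seedlings, fewer cells of a type and less RNA per cell cannot be told apart.

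HY5, PIF1, PIF3, COP1 and PIL1 were higher in lon1-1, and PIF4, HYH, PIF5 and HFR1 were lower, so that both the PIF genes and the HY5 pair were split in direction. All 9 members that could be tested passed the threshold (limma on log2(FPKM + 1), Benjamini-Hochberg adjusted p under 0.05 over 18308 genes), 5 higher and 4 lower. That count has to be read against the whole table, where 77.0% of tested genes passed, 44.7% higher and 32.3% lower. The lon1-1 and wt libraries did not overlap for any of the 10 members, as for 79.1% of all tested genes. By size of change, 9.45% of tested genes had an absolute log2 change as large as that of PIF4, 11.6% as large as HY5, 12.3% as large as PIF1, 15.5% as large as HYH and 20% as large as PIF5. PIF3 (46.2%) and COP1 (50.1%) were near the middle of all genes, and HFR1 (70.1%) and PIL1 (75.1%) changed less than most. These sizes are on log2(FPKM + 1), where the added 1 shrinks changes of low genes such as PIF4, PIF5 and HYH. With 0.1 added, the log2 fold change was -0.99 for HYH and -0.85 for PIF5, against 0.94 for HY5 and 0.91 for PIF1. The median log2 fold change over the 9 was 0.15, against 0.08 over all tested genes.

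**Figure D1:**
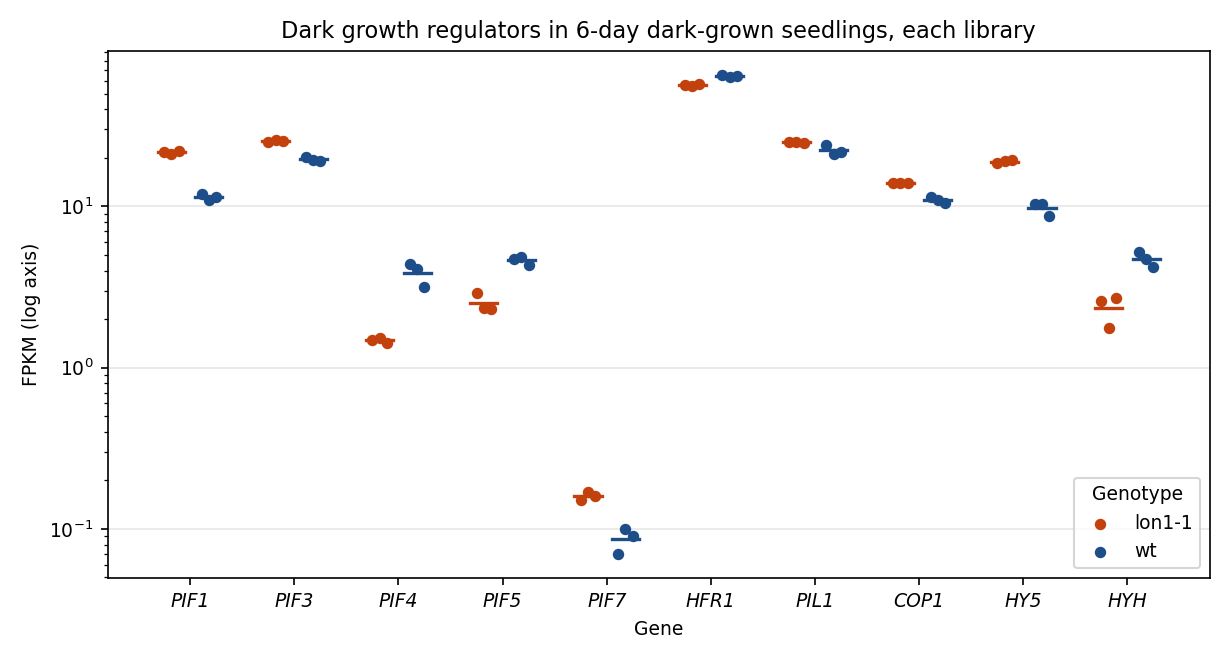
FPKM on a log axis for the 10 genes in each library, with lon1-1 in orange left of wt in blue, points for the 3 libraries per genotype and a line at their mean. HY5 and PIF1 lie near 20 FPKM in lon1-1 and near 10 in wt, PIF4, PIF5 and HYH lie below 3 in lon1-1 and above 3 in wt, and PIF7 lies below 0.2 in all 6 libraries.

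PIF1 and PIF3 were the most abundant of the 5 PIF transcripts in both genotypes, and both rose. PIF1, which represses seed germination and chlorophyll synthesis in the dark, had 21.75, 21.06 and 21.94 FPKM in lon1-1 and 11.92, 11.02 and 11.40 in wt. The mutant libraries were all well above the wild type, 1.89-fold in the means (log2 fold change 0.86, SE 0.042, limma adjusted p = 5.61e-08). PIF1 shares 334 bases with AT2G20170 on the opposite strand. The labels call the libraries stranded, but the sources used here do not say whether counting used strand. AT2G20170 had no FPKM value among the deposited genes. PIF3, the founding member of the family and a regulator of hypocotyl growth and plastid development, had 25.21, 25.84 and 25.57 FPKM in lon1-1 and 20.27, 19.26 and 19.24 in wt. Its rise was smaller, 1.30-fold (log2 0.37, SE 0.037, limma adjusted p = 8.81e-06).

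PIF4 and PIF5, close relatives that drive elongation growth through auxin genes, both fell. PIF4 had 1.48, 1.53 and 1.42 FPKM in lon1-1 and 4.36, 4.08 and 3.17 in wt. The lon1-1 libraries were tightly grouped, while wt C was lower than wt A and B, though still above every lon1-1 library. The mean was 2.62-fold lower in lon1-1 (log2 fold change -0.97, SE 0.093, limma adjusted p = 6.52e-06). The added 1 shrinks changes at such levels, and with 0.1 added instead the log2 fold change was -1.32. By the approximate depth and the longest listed transcript, these values stand for about 109 to 115 fragments per lon1-1 library and 225 to 314 per wt library. PIF5 had 2.92, 2.34 and 2.32 FPKM in lon1-1 and 4.71, 4.83 and 4.34 in wt, 1.83-fold lower in the mutant (log2 -0.68, SE 0.078, limma adjusted p = 2.58e-05).

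PIF7, a factor of shade and warm-temperature growth, was close to undetected. It had 0.15, 0.17 and 0.16 FPKM in lon1-1 and 0.07, 0.10 and 0.09 in wt, which is about 9.18 to 10.5 fragments per lon1-1 library and 4.13 to 5.85 per wt library. It did not reach the 1 FPKM in 3 libraries needed for the test. Without that filter it had a log2 fold change of 0.09 (SE 0.029, limma adjusted p = 0.0231), a size set mostly by the added 1. PIF7 also shares 318 bases with AT5G61260 on the opposite strand, which was more abundant, with 4.29 ± 0.291 FPKM in lon1-1 and 3.69 ± 0.349 in wt (SD, n = 3 each).

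Because FPKM is a level per length, the PIF transcripts can be added up. The 5 PIF genes summed to 51.5, 50.9 and 51.4 FPKM in lon1-1 and 41.3, 39.3 and 38.2 in wt. The pool was thus larger in every mutant library, and its make-up shifted. PIF4 and PIF5 together made up 8.54%, 7.60% and 7.27% of it in lon1-1, against 21.9%, 22.7% and 19.6% in wt. PIF1 made up 42.2%, 41.3% and 42.7% in lon1-1, against 28.8%, 28.0% and 29.8% in wt. The share of PIF3 overlapped between genotypes, at 48.9%, 50.7% and 49.7% in lon1-1 and 49.0%, 49.0% and 50.3% in wt.

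**Figure D2:**
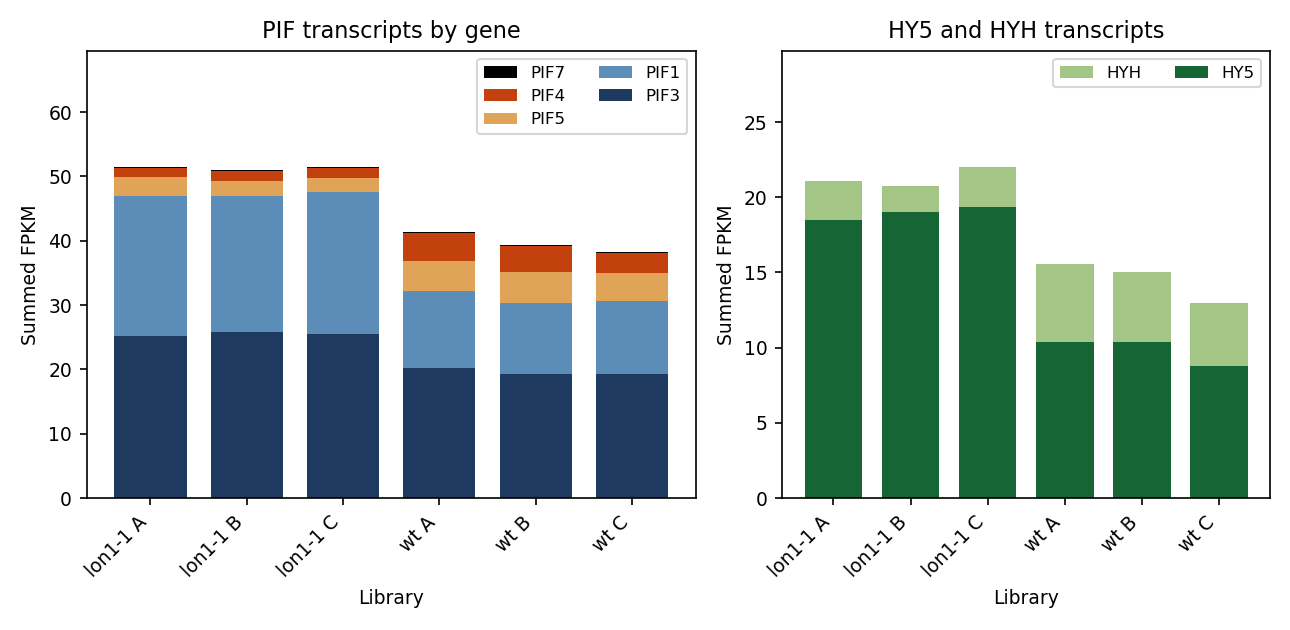
Summed FPKM per library, stacked by gene, for the 5 PIF genes (left) and for HY5 and HYH (right), with the 3 lon1-1 libraries left of the 3 wt libraries. The PIF bars reach 50.9 to 51.5 FPKM in lon1-1 and 38.2 to 41.3 in wt, with thinner PIF4 and PIF5 segments in lon1-1, and HYH is a smaller part of the right-hand bars in lon1-1.

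HFR1 and PIL1 encode atypical members of the same bHLH family that are known for shade responses, HFR1 as an inhibitor that binds PIFs and keeps them off DNA. HFR1 was the most abundant of the 10 genes in both genotypes. It had 56.36, 55.97 and 57.31 FPKM in lon1-1 and 65.49, 63.80 and 64.20 in wt, a fall of small size (1.14-fold, log2 -0.19, SE 0.029, limma adjusted p = 0.000228). PIL1 had 24.89, 25.22 and 24.56 FPKM in lon1-1 and 24.07, 21.03 and 21.82 in wt. The gap between wt A and the lowest lon1-1 library was narrow, and the mean was 1.12-fold higher in lon1-1 (log2 0.15, SE 0.049, limma adjusted p = 0.016). This call was lost with median-ratio scaling (log2 0.08, adjusted p = 0.126), with upper-quartile scaling (log2 0.10, adjusted p = 0.0679), without wt replicate B (log2 0.11, adjusted p = 0.0657) and without wt replicate C (log2 0.14, adjusted p = 0.0532), all in limma, and over all its alternatives the adjusted p ranged up to 1.

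COP1 had 14.03, 14.00 and 14.00 FPKM in lon1-1 and 11.43, 10.90 and 10.42 in wt. All mutant libraries were higher, by 1.28-fold in the means (log2 0.33, SE 0.045, limma adjusted p = 7.32e-05). Against a minimum fold of 1.2 in limma's treat, COP1 and HFR1 no longer passed (adjusted p = 0.154 and 1).

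HY5 and HYH, related bZIP factors that promote greening and are both targets of COP1, moved in opposite directions. HY5 had 18.51, 18.99 and 19.33 FPKM in lon1-1 and 10.37, 10.36 and 8.76 in wt, 1.93-fold higher in the mutant (log2 0.88, SE 0.061, limma adjusted p = 6.37e-07). HYH had 2.60, 1.76 and 2.70 FPKM in lon1-1 and 5.18, 4.70 and 4.22 in wt, 2.0-fold lower in the mutant (log2 -0.77, SE 0.11, limma adjusted p = 0.000135). HYH rests on the fewest fragments of the tested members, about 36.4 to 57 per lon1-1 library and 82.2 to 102 per wt library. HY5 transcripts outnumbered HYH transcripts 7.12, 10.8 and 7.16 times per length in the lon1-1 libraries, against 2.0, 2.2 and 2.1 times in wt. Their sum was 21.1, 20.8 and 22 FPKM in lon1-1 and 15.5, 15.1 and 13 in wt.

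Each of 3 pairs of relatives was compared within libraries, as the log2 ratio of their FPKM. For HY5 over HYH it averaged 3.03 ± 0.34 in lon1-1 and 1.07 ± 0.07 in wt (SD, n = 3 each), a difference of 1.97. For PIF1 over PIF3 it averaged -0.24 ± 0.05 in lon1-1 and -0.78 ± 0.03 in wt, a difference of 0.53, so the more abundant PIF3 was less far ahead in the mutant. For PIF4 over PIF5 it averaged -0.77 ± 0.19 in lon1-1 and -0.27 ± 0.17 in wt, a difference of -0.50. In each pair the libraries of the genotypes did not overlap, and the two-sided exact permutation test gave p = 0.1 before and after adjustment over the 3 pairs, the smallest p that 3 libraries against 3 allow.

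**Figure D3:**
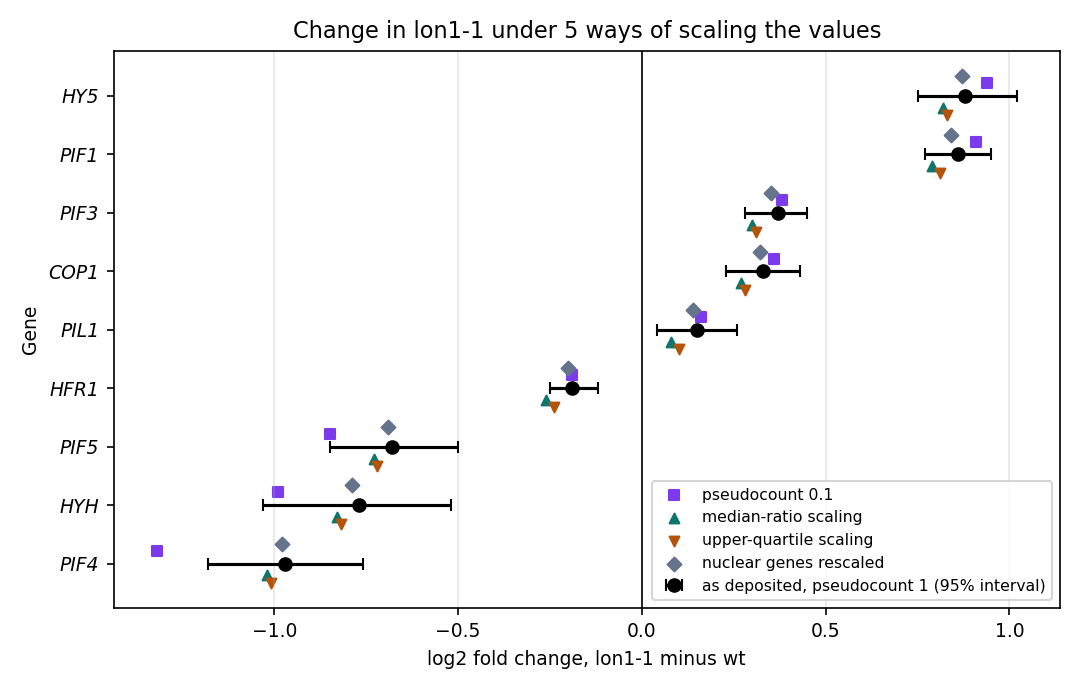
Log2 fold change, lon1-1 minus wt, of the 9 tested genes: black points with 95% intervals from limma on the deposited FPKM with 1 added, and coloured marks for 0.1 added and for 3 other scalings. Every gene keeps its side of 0 under the settings drawn, PIL1 comes closest to 0 (0.08 with median-ratio scaling), and PIF4 moves farthest, to -1.32 with 0.1 added.

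The order of the members by level also differed between genotypes. In lon1-1 it ran HFR1, PIF3, PIL1, PIF1, HY5, COP1, PIF5, HYH, PIF4 and PIF7, where PIF3 and PIL1, and PIF5 and HYH, overlapped between neighbours. In wt it ran HFR1, PIL1, PIF3, PIF1, COP1, HY5, HYH, PIF5, PIF4 and PIF7, where PIF1 and COP1, HYH and PIF5, and PIF5 and PIF4 overlapped. HY5 stood above COP1 in lon1-1, at 18.51 to 19.33 FPKM against 14.00 to 14.03 for COP1, and below it in wt, at 8.76 to 10.37 FPKM against 10.42 to 11.43. PIF1 stood above COP1 in every library of both genotypes.

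For HY5 and PIF4, the genes with the most similar profile over the 6 libraries were found by the root mean square difference of centred log2(FPKM + 1). With 3 close libraries per genotype such a profile mostly reflects the lon1-1 minus wt change. Likeness here is therefore mainly likeness of that change, and shared regulation was not tested. Those nearest to HY5 were AT3G23530 (0.029), AT2G33840 (0.029) and the transcription factor gene WRKY18 (0.031), among 12795 genes with a mean of at least 5 FPKM. WRKY18 averaged 24.6 ± 0.545 FPKM in lon1-1 and 12.9 ± 1.40 in wt. The nearest to PIF4 were VTE5 (0.034), a gene of vitamin E synthesis, PDF1.4 (0.049) and AT3G20680 (0.050), among 18042 genes with a mean of at least 1 FPKM. PDF1.4 averaged 0.503 ± 0.0379 FPKM in lon1-1 and 2.04 ± 0.325 in wt, so it passed the filter through wt only. At such levels the added 1 shrinks its change. VTE5 averaged 2.61 ± 0.0252 FPKM in lon1-1 and 6.12 ± 0.673 in wt (SD, n = 3 each).

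The list of COP1 partners holds the SPA proteins that act with COP1, the CUL4, DDB1, DET1 and COP10 components, and the COP9 signalosome (CSN), which removes the modifier NEDD8 from cullins. Of 19 tested genes 12 rose and 2 fell (median log2 fold change 0.35, against 0.08 over all tested genes). The share called either way was near the 77.0% of all genes, of which 44.7% were higher and 32.3% lower. SPA1 (AT2G46340) changed most, at 9.43 ± 0.187 FPKM in lon1-1 and 4.45 ± 0.0569 in wt, 2.12-fold higher (SD, n = 3 each; limma adjusted p = 7.15e-08). Its relatives SPA2 and SPA4 were the 2 genes that fell, 1.14-fold and 1.19-fold, and SPA3 had 2.50 ± 0.186 FPKM in lon1-1 and 2.67 ± 0.213 in wt and did not pass (limma adjusted p = 0.413). Among signalosome subunits CSN6B was 1.51-fold higher, CSN4 1.5-fold, CSN2 1.48-fold and CSN1 1.46-fold. Not all subunits rose: CSN5A and CSN7 did not pass (limma adjusted p = 0.167 and 0.295). CSN5A had 14.0 ± 0.617 FPKM in lon1-1 and 14.8 ± 0.560 in wt. Under median-ratio and under upper-quartile scaling 4 genes of this list were lower instead of 2.

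Among genes of the B-box (BBX) proteins that act with HY5, 9 of 13 listed were tested, of which 3 rose and 2 fell (median 0.05). That is a smaller share called than the 77.0% of all tested genes. BBX23 (AT4G10240), which acts with HY5 to promote greening, had 2.50, 2.53 and 2.36 FPKM in lon1-1 and 19.90, 20.83 and 18.75 in wt. It was 8.05-fold lower in the mutant with no overlap (log2 -2.59, SE 0.054, limma adjusted p = 1.77e-10), a larger fall than in any of the 9 tested members. BBX28, which hinders HY5 from binding DNA, was 1.53-fold lower, at 20.4 ± 1.06 FPKM in lon1-1 and 31.2 ± 0.222 in wt. BBX24, an antagonist of HY5, was 1.31-fold higher, at 51.6 ± 1.06 FPKM in lon1-1 and 39.4 ± 0.728 in wt, and BBX11 was also 1.31-fold higher. BBX21, an activator of HY5, had 80.6 ± 4.41 FPKM in lon1-1 and 84.4 ± 3.89 in wt and did not pass (SD, n = 3 each; limma adjusted p = 0.222).

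Other helix-loop-helix genes related to the PIFs went both ways, with 7 higher and 4 lower of 13 tested (median 0.23), close to the 44.7% higher and 32.3% lower among all tested genes. HEC2, whose protein belongs to the HECATE group that binds PIFs, had 26.65, 21.58 and 24.30 FPKM in lon1-1 and 10.20, 9.25 and 9.72 in wt, 2.49-fold higher (limma adjusted p = 1.56e-07). HEC1 also rose, 1.77-fold. The tested PRE genes, small growth promoters, were split. In lon1-1 PRE3 was 2.12-fold and PRE5 1.22-fold higher, while PRE1 was 1.97-fold and PRE6 1.22-fold lower. PRE6 was the most abundant of them, at 49.7 ± 1.59 FPKM in lon1-1 and 60.8 ± 3.52 in wt. IBH1, which the PRE proteins counteract, was 1.85-fold lower, at 19.8 ± 0.529 FPKM in lon1-1 and 36.5 ± 3.34 in wt (SD, n = 3 each). PIF6 rose 1.71-fold, while PIF8 had 1.27 ± 0.127 FPKM in lon1-1 and 1.47 ± 0.175 in wt and did not pass (limma adjusted p = 0.193).

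Growth genes known to be activated by PIFs were lower for the most part. Of 13 tested, 8 fell and 3 rose (median -0.38), against 32.3% lower and 44.7% higher among all tested genes. The auxin response repressor gene IAA29 was 2.60-fold lower, with 3.82, 4.16 and 4.30 FPKM in lon1-1 and 11.04, 10.44 and 10.47 in wt. XTH15, a wall-loosening enzyme gene, was 1.77-fold lower, at 398 ± 15.9 FPKM in lon1-1 and 704 ± 16.1 in wt, and the cytokinin oxidase gene CKX5 was 1.71-fold lower. The auxin synthesis gene YUC8 was 1.45-fold lower, at 11 ± 0.225 FPKM in lon1-1 and 15.8 ± 0.681 in wt. LNG1, LNG2 and FHL were the 3 that rose, LNG1 by 1.64-fold, at 37.2 ± 1.69 FPKM in lon1-1 and 22.7 ± 0.397 in wt. ATHB2, a marker of PIF activity in shade, had 56.7 ± 1.26 FPKM in lon1-1 and 54.4 ± 2.12 in wt and did not pass (SD, n = 3 each; limma adjusted p = 0.168).

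Greening genes listed as repressed by PIFs in the dark were also lower for the most part. Of 9 tested, 8 fell and 1 rose (median -0.43), where 32.3% of all tested genes were lower. PORC is counted among those that fell, but its place in a list of PIF-repressed genes is uncertain. The largest falls were in GUN4 (3.98-fold) and CHLH (3.52-fold), both of the magnesium chelatase step of chlorophyll synthesis, then in the transcription factor gene GLK1 (1.90-fold) and the reductase gene PORC (1.66-fold). GLK2, the relative of GLK1, was the gene that rose, at 12.1 ± 0.599 FPKM in lon1-1 and 8.47 ± 0.429 in wt (SD, n = 3 each; limma adjusted p = 2.46e-05).

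Genes known to be activated by HY5 were lower in 9 of 11 tested and higher in 1 (median -1.07), against the same 32.3% lower among all tested genes. CHS, the entry enzyme of flavonoid synthesis, was 7.57-fold lower in lon1-1, the light-induced ELIP2 6.08-fold, and the sucrose transporter genes SWEET12 and SWEET11 4.66-fold and 3.98-fold. SWEET11 had 42.2 ± 1.65 FPKM in lon1-1 and 168 ± 3.57 in wt, and SWEET12 had 20.5 ± 0.766 in lon1-1 and 95.4 ± 1.45 in wt. RUP2, a repressor of the ultraviolet-B receptor, was the gene that rose, 2.26-fold, while its relative RUP1 was 1.32-fold lower. Most of this list thus fell in seedlings in which the HY5 transcript rose and the HYH transcript fell.

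**Figure D4:**
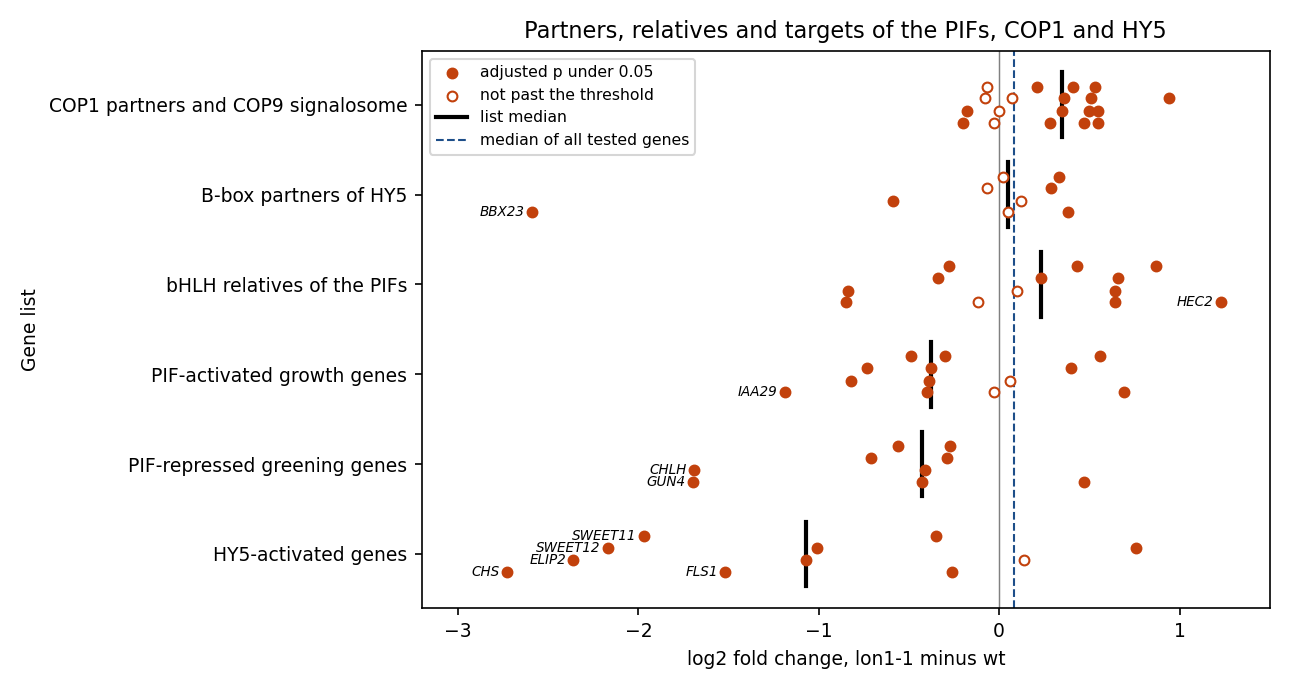
Log2 fold change, lon1-1 minus wt, of each tested gene in the 6 lists, filled where it passed the threshold, with the list median as a black bar and the median of all tested genes (0.08) as a dashed line. The median lies at 0.35 for COP1 partners, at -0.38 and -0.43 for PIF-activated and PIF-repressed genes and at -1.07 for HY5-activated genes.

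Markers of organs and cell states were set against the shares of all tested genes, 44.7% higher and 32.3% lower. Of 9 tested root markers 6 were higher in lon1-1 (RHD6, COBL9, EXPA7, PRP3, GL2 and PYK10) and 2 were lower (SHR and CASP1). The whole list of 12 summed to 5129 to 5404 FPKM in lon1-1 and 3249 to 3501 in wt. Most of that sum was PYK10, at 4978 ± 155 FPKM in lon1-1 and 3031 ± 121 in wt. The sum therefore does not stand for the other root markers. CASP1, the next most abundant, went the other way, at 153 ± 8.12 FPKM in lon1-1 and 272 ± 13.1 in wt (SD, n = 3 each). Among shoot apex and stomatal markers, STM and TMM were the 2 that could be tested and both were lower, with 8 of the 9 listed genes summing to 5.63 to 6.62 FPKM in lon1-1 and 11.1 to 12 in wt. CLV3 was listed at 0 in 2 lon1-1 libraries and 1 wt library, and WUS had no FPKM value among the deposited genes. Of 6 markers of dividing cells 2 were higher and 2 lower, a smaller share called than the 77.0% of all tested genes, with a median log2 fold change of 0.00 and sums of 31.4 to 34.8 FPKM in lon1-1 and 37.1 to 42.4 in wt. Their part in the changes of the 10 members was not tested.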

How the data were processed

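The deposited table gives FPKM per gene and library, computed by the authors and written to 2 decimals. The submitters' processing notes name HISAT2, Bowtie2, RSEM and the build TAIR10, without versions or order. Per the labels' protocols, ribosomal RNA was removed and libraries were stranded. Loci and symbols came from the RefSeq table of TAIR10.1, which holds 99.8% of the RefSeq transcript accessions listed.

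Genes that reached 1 FPKM in 3 or more libraries were compared with limma 3.58.1 in R 4.3.3 (empirical Bayes with trend) on log2(FPKM + 1). Genotype was the only term, lon1-1 minus wt, with p adjusted by Benjamini-Hochberg over all 18308 genes. The code was run on simulated data in which far fewer genes changed than here. That run does not show how the test behaves when most genes change. Folds are ratios of mean FPKM. FPKM holds no counts, so depth was estimated on a grid of 250000 fragments with 180 bases taken off each transcript, both chosen to bring low values near whole numbers (89.5% to 94% within 0.15), and no counting interval is given. Fragments per member use the longest listed transcript and are approximate.

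The members and lists were chosen with earlier results of these data known, the lists from textbook knowledge. Named genes are the members, LON1, PORA, PORB, up to 4 called genes per list with the largest absolute change, and the 3 profiles nearest to HY5 and to PIF4. Other genes named in a list, and the choice of the 4 printed windows, followed after values were seen. Alternatives covered the added constant, the filter, 3 scalings, the trend, a replicate block, each library left out and limma's treat against a fold of 1.2.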

Additional observations from a re-analysis of the deposited data

How the results depend on the processing

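For the 9 tested members, 134 of 141 alternative values kept the direction and the side of the threshold, 7 kept the direction but lost the call, and none reversed. The 7 were 5 for PIL1 and 1 each for COP1 and HFR1, and the last 2 were lost against a fold of 1.2 in limma's treat (adjusted p = 0.154 and 1). Against that fold 3 members were higher, and in the lists 0 COP1 partners and 2 PIF relatives were lower and 1 B-box gene was higher. With a filter of 5 FPKM, which leaves fewer genes to test, 1 member, 1 COP1 partner and 5 PIF-repressed genes were lower, and 4 PIF relatives and 0 HY5-activated genes were higher. With no filter, which adds genes, 2 PIF-repressed and 2 HY5-activated genes were higher. Median-ratio and upper-quartile scaling each left 4 COP1 partners lower, the cause of which was not tested. Across all genes the share of calls that were higher was 58.0%, 51.3% with median-ratio and 53.0% with upper-quartile scaling. The counts of members and of the 6 pathway lists kept within 1.5 times of their values when each library was left out, which was not run for the organ and cell markers.

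The letters A, B and C are not said to pair libraries. Over 18308 genes the deviations of same-letter libraries correlated at 0.0604, 0.0171 and -0.0318, and those of unlike letters at -0.0654 to 0.0475. With 3 libraries per genotype, these values do not settle whether a letter marks a shared batch. With the replicate block 5 members were higher and 4 lower, as without it, and 8145 genes in all were higher and 5901 lower, against 8182 and 5922. The low levels of PIF7, PIF4 and HYH limit the precision of their changes.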

Other observations

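A few listed genes lay below the filter and are given as values only. GNL, a GATA factor gene of greening, had 0.68, 0.77 and 0.79 FPKM in lon1-1 and 0.17, 0.06 and 0.17 in wt, while its relative GNC, which was tested, was 1.26-fold lower in lon1-1. MYB111, a flavonol regulator gene, had 0.64, 0.71 and 0.62 FPKM in lon1-1 and 0.98, 0.94 and 1.13 in wt. MYB12, its relative, had 0.10, 0.10 and 0.16 FPKM in lon1-1 and 0.00, 0.02 and 0.02 in wt, in the other direction. PRE4 had 1.05, 0.98 and 0.51 FPKM in lon1-1 and 0.18, 0.30 and 0.43 in wt. These 4 genes below the filter were picked after their values were seen. Their values did not overlap between genotypes, which also held for YUC2, PLT2 and FAMA below the filter. Other listed genes below it, such as BBX25 and PRE2, did overlap. The share without overlap among all genes below the filter was not computed.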
